A study of Mus musculus with 9 samples.

Results

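Macrophages take up and react to antibody-coated particles through Fc receptors, and this account follows the 6 mouse genes that encode the receptors for IgG and their shared partner. The members were taken by symbol: Fcgr1, Fcgr3 and Fcgr4 (the activating receptors FcγRI, FcγRIII and FcγRIV), Fcgr2b (the inhibitory receptor FcγRIIb), Fcer1g (the signalling γ-chain) and Fcgrt (the neonatal receptor FcRn). All 6 were found among the 28998 genes of the deposited table, and all 6 passed the minimum mean FPKM of 1 that 11798 genes passed. FPKM counts fragments relative to transcript length and library depth, and levels of different genes are set beside each other only on that scale.

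The cells were bone marrow-derived macrophages of wild-type C57 mice, grown from marrow monocytes with GM-CSF for 7 days. Control, JHU083 and WGFT17 cells gave 3 libraries each, and the drugs were given for 36 h. JHU083 is known as a prodrug of the glutamine antagonist DON, whereas WGFT17 is a code name for which no structure or target was used here. The labels give neither doses, nor what Control cells received, nor how long Control was kept, so drug and culture time cannot be told apart in comparisons with Control. Separate mice or cultures are not named for the replicates either, so a p-value reflects the spread of these libraries alone, which may be technical. In bulk RNA, fewer cells of a type and less RNA per cell cannot be told apart.

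An activating Fc receptor binds the constant part of IgG outside the cell and signals through the γ-chain, which carries an immunoreceptor tyrosine-based activation motif (ITAM). Src family kinases phosphorylate the ITAM tyrosines, Syk docks there, and phagocytosis, oxidase activity and cytokine release follow. FcγRIIb carries an inhibitory motif (ITIM) in its own tail and recruits the lipid phosphatase SHIP when it is engaged together with an activating receptor, which raises the threshold of the response. FcRn works differently: inside acidic endosomes it binds IgG and albumin and returns them to the surface, which spares them from lysosomes.

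Library totals ran from 56624220 to 69112134 estimated counts. About 4 of them were taken to stand for 1 read pair, which would give about 14156055 to 17278034 pairs. The 12 macrophage markers were all at 1 FPKM or more in every group, with summed levels of 13117 to 14194 FPKM in Control, 13814 to 15386 in JHU083 and 13907 to 15426 in WGFT17. Most of each sum was Lyz2, with means of 8013, 8995 and 9660 FPKM in the same order. Single markers moved both ways from Control to WGFT17. Means went from 1102 to 638 FPKM for C1qb and from 134 to 99.1 for Itgam. They went from 1463 to 2046 for Ctss and from 25.7 to 32.7 for Mertk. The JHU083 libraries differed in transcripts that do not belong to these cells. In JHU083 replicate 3 the 9 measured photoreceptor markers summed to 7.65 FPKM, against 0.17 and 0.12 in replicates 1 and 2, 6.52 to 8.73 in Control and 0.12 to 0.16 in WGFT17. The 10 heart muscle markers set replicate 2 apart instead, with sums of 56.0, 0.25 and 86.3 FPKM in JHU083 replicates 1 to 3, 66.4 to 75.7 in Control and 0.20 to 0.24 in WGFT17. Results that rest on JHU083 replicate 3 are given with and without it.

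Activation and inhibition by these receptors rest on short tyrosine motifs, and the coding bases of the pair of motifs are shown because every ratio below sets one kind of signal against the other. The stretches were read from GENCODE M21 transcripts in GRCm38, 5′ to 3′ on the coding strand, with the tyrosine codons in capitals. Each printed stretch and its coordinates hold the motif plus 2 flanking codons on either side. The inhibitory motif lies in coding sequence near the end of Fcgr2b-201 (stretch at chr1:170961065-170961094, minus strand; motif at residues 317 to 322 of 340). The activating motif lies in coding sequence of Fcer1g-201, in a stretch across an exon junction (chr1:171229883-171230078, minus strand), and covers residues 65 to 79 of 86.
Fcgr2b inhibitory motif with flanks: aatacgatcaccTACtcacttctcaagcat
Fcer1g activating motif with flanks: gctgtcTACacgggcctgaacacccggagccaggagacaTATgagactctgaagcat
A search of the 6 reading frames for the ITAM pattern found that stretch of Fcer1g and no other. The ITIM pattern is looser and matched 7 stretches, 3 of them in Fcgr1 and 1 each in Fcgr2b, Fcgr4, Fcer1g and Fcgrt, so a match alone does not make a site.

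Fcgr2b and Fcgr3 share most of their extracellular coding sequence, which matters for counting reads. Over 782 aligned coding bases the 2 genes were 87.5% identical, and the longest identical run had 129 bases. It is shown in capitals, with 15 bases on each side, for Fcgr2b (chr1:170966659-170968096, minus strand, across an exon junction) and for Fcgr3 (chr1:171054152-171057807, minus strand, across an exon junction).
Fcgr2b shared run: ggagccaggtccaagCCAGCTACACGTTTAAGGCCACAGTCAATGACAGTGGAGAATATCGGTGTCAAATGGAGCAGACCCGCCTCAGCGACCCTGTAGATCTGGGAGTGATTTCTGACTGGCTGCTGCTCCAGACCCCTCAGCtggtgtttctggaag
Fcgr3 shared run: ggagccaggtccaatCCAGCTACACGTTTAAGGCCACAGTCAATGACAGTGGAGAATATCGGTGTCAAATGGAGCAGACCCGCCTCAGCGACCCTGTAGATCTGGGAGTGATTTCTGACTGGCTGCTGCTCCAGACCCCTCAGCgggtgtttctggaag
No window of 150 bases, the length of a read, was identical between them (0 of 3395 in the Fcgr2b transcript and 0 of 1198 in the Fcgr3 transcript). Of 50-base coding windows, 17.1% of Fcgr2b and 22.1% of Fcgr3 were found in the other gene. How reads that match both were divided is not given in the sources used here, so a small part of either value is uncertain.

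Of the 6 genes, 4 lie together on chromosome 1 in GRCm38: Fcgr2b (ENSMUSG00000026656, chr1:170958617-170976547, minus strand), Fcgr4 (ENSMUSG00000059089, chr1:171018920-171029761, plus strand), Fcgr3 (ENSMUSG00000059498, chr1:171051174-171064935, minus strand) and Fcer1g (ENSMUSG00000058715, chr1:171229572-171234365, minus strand). Fcgr1 (ENSMUSG00000015947, chr3:96282909-96293969, minus strand) and Fcgrt (ENSMUSG00000003420, chr7:45092990-45103851, minus strand) lie elsewhere. A row of the table overlaps a member only at Fcgr4, where Gm26110 on the same strand had 0 to 0.03 FPKM.

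The γ-chain and FcγRIII were by far the most abundant. In Control, the mean level of Fcer1g was 403 ± 8.20 FPKM (SD, n = 3) and that of Fcgr3 was 300.2 ± 9.10, at percentiles 99.4 and 99.1 of the tested genes. Fcgrt at 56.3 ± 2.81 and Fcgr2b at 52.0 ± 1.74 came next, with overlapping libraries. Fcgr1 at 29.4 ± 0.285 and Fcgr4 at 28.4 ± 2.58 were lowest and overlapped each other too. These less abundant activating receptors stood at percentiles 87.6 and 87.2, below the inhibitory receptor at 93.5.

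The order of the levels differed between groups. In JHU083, Fcgr3 (321 ± 8.28 FPKM) and Fcer1g (310.0 ± 56.6) overlapped, and the places below them were as in Control. In WGFT17, Fcer1g (322 ± 17.6) stood above Fcgr3 (288 ± 17.8) with no overlap. Fcgr2b (39.4 ± 3.74) and Fcgr1 (37.1 ± 2.16) overlapped there, and Fcgrt (34.0 ± 0.595) lay below both, whereas in Control it ranked above both.

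**Figure D1:**
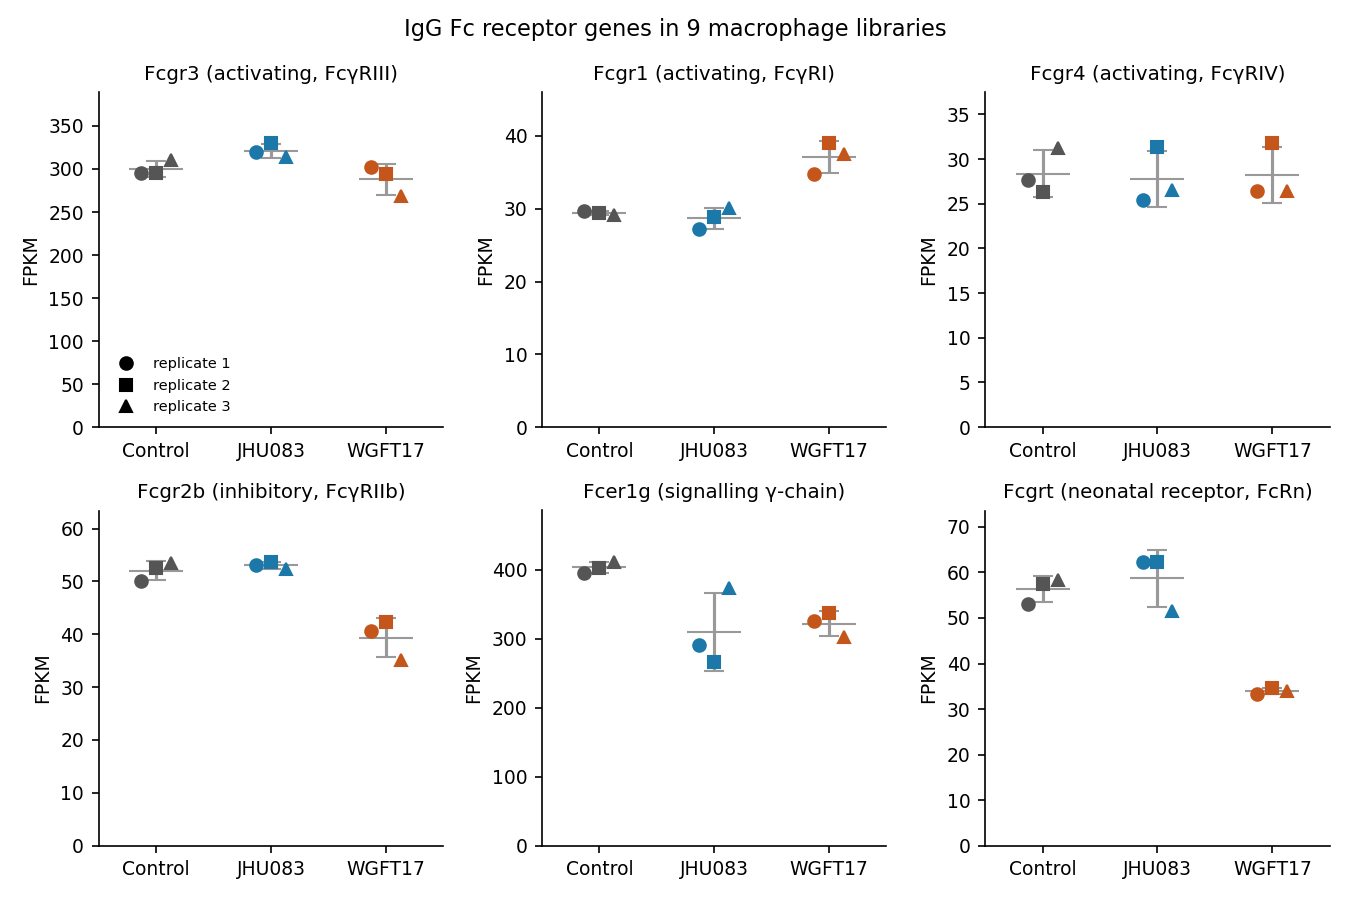
Level of each gene in FPKM (vertical axes, from 0) in the 9 libraries of Control, JHU083 and WGFT17. Symbols mark replicates 1 to 3, and the grey cross is the group mean with 1 SD. The WGFT17 libraries lie apart from the other 6 for Fcgr1 (above), Fcgr2b (below) and Fcgrt (below), while those of Fcgr4 overlap throughout.

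Changes were tested on the estimated counts with edgeR's quasi-likelihood test, all 9 libraries in 1 fit, and a gene is called changed when its Benjamini-Hochberg adjusted p over all 11798 genes is under 0.05. Log2 changes are those of this count fit, with their SE. The FPKM scale places both drug groups higher: the median change of all tested genes was 0.08 for JHU083 and 0.10 for WGFT17 against Control on log2(FPKM + 1), but 0.00 in the count fit. FPKM differences of that size between a drug group and Control are thus not read as changes below. The scale also moves the split of calls for JHU083 against Control, which was 1351 higher and 1480 lower in the count fit, 1738 higher of 2960 with library totals alone, and 2524 higher of 3527 on log2(FPKM + 1). For WGFT17 against Control it was 3300 higher and 3537 lower in the count fit and 4490 higher of 7369 on log2(FPKM + 1).

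In JHU083 the γ-chain gene fell, and no other member had a called change. Of the 6 genes 1 was called against Control, and it was lower. Over all tested genes 24% were called, 12.5% lower and 11.5% higher, so that share is near the background. The FPKM of the groups did not overlap for 43.7% of tested genes. Fcer1g had FPKM of 395, 402 and 412 in the Control libraries, and 291, 266 and 374 in those of JHU083. All JHU083 libraries lay below all Control libraries, with replicate 3 closest to them. The log2 change was -0.47 (SE 0.11, 95% interval -0.71 to -0.24), a level 1.39-fold lower, with an adjusted p of 0.0101 by edgeR. Without JHU083 replicate 3 it was -0.64, and with replicate 3 as the only JHU083 library it was -0.20 with an adjusted p of 0.0593 by edgeR, so the call does not hold in that library alone. It was also lost when each library's trend on transcript length was removed, a step added after the data were seen (log2 change -0.19, adjusted p = 0.108 by edgeR).

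The receptors that bind IgG showed small differences in JHU083. The inhibitory Fcgr2b had FPKM of 50.1, 52.6 and 53.4 in Control and 53.1, 53.8 and 52.4 in JHU083, and these ranges overlap. Its log2 change was -0.07 (95% interval -0.21 to 0.08, adjusted p = 0.507 by edgeR). Fcgr3 had 295, 295 and 311 FPKM in Control and 319.8, 330.1 and 314 in JHU083, a difference that vanishes in the count fit (log2 change 0.00, 95% interval -0.12 to 0.13, adjusted p = 0.975 by edgeR). Log2 changes were -0.13 for Fcgr1 (95% interval -0.26 to 0.00, adjusted p = 0.132), -0.13 for Fcgr4 (-0.36 to 0.11, adjusted p = 0.422) and -0.03 for Fcgrt (-0.19 to 0.12, adjusted p = 0.758). A missed threshold does not show that the levels were equal. Fcgr1 was called without JHU083 replicate 3 (log2 change -0.17, adjusted p = 0.035 by edgeR), and Fcgrt was called with that replicate as the only JHU083 library (log2 change -0.22, adjusted p = 0.0389 by edgeR).

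In WGFT17 the gene of FcγRI rose, and those of FcγRIIb, FcRn, the γ-chain and, by less, FcγRIII fell. Against Control, 5 of the 6 members were called, 1 higher and 4 lower. Over all tested genes 58% were called, 28% higher and 30% lower, so a majority of calls among any 6 genes is common in this comparison. Groups did not overlap in FPKM for 73.2% of tested genes.

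The neonatal receptor had the largest change of the 6. Fcgrt had FPKM of 53.1, 57.4 and 58.4 in Control and 33.4, 34.6 and 34.0 in WGFT17. The WGFT17 libraries were close to each other and far below Control. The level was 1.79-fold lower (log2 change -0.84, SE 0.07, 95% interval -0.997 to -0.68, adjusted p = 2.07e-06 by edgeR).

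The inhibitory receptor was next. Fcgr2b had FPKM of 40.6, 42.4 and 35.2 in WGFT17, all below the lowest Control library at 50.1. The log2 change was -0.51 (SE 0.07, 95% interval -0.66 to -0.36), a level 1.43-fold lower, with an adjusted p of 6.73e-05 by edgeR.

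Among the activating receptors, the high-affinity receptor gene Fcgr1 rose. Its FPKM values were 29.6, 29.5 and 29.1 in Control and 34.8, 39.0 and 37.6 in WGFT17, with no overlap. The log2 change was 0.23 (SE 0.06, 95% interval 0.10 to 0.36), a level 1.17-fold higher, with an adjusted p of 0.00591 by edgeR. Fcgr3 had FPKM of 302, 294 and 268 in WGFT17, which overlap the Control range of 295 to 311. It was called lower by a small margin (log2 change -0.17, SE 0.06, adjusted p = 0.026 by edgeR), and this call was lost under 6 of 18 alternatives. Those were no minimum FPKM (-0.14), both FPKM scales (-0.06 each), leaving out Control replicate 3 (-0.14) or WGFT17 replicate 3 (-0.12), and removal of the trend on transcript length (-0.04). Fcgr4 had FPKM of 27.6, 26.3 and 31.3 in Control and 26.4, 31.8 and 26.4 in WGFT17, with a log2 change of -0.12 (95% interval -0.36 to 0.12, adjusted p = 0.361 by edgeR).

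The γ-chain gene also fell in WGFT17. Fcer1g had FPKM of 325, 337 and 303, all below the lowest Control library at 395. The log2 change was -0.43 (SE 0.11, 95% interval -0.67 to -0.20, adjusted p = 0.00465 by edgeR), a level 1.35-fold lower. With the trend on transcript length removed it was -0.08 (adjusted p = 0.37 by edgeR) and not called.

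The drugs were compared directly at the same 36 h, with doses not given. WGFT17 against JHU083 had 4 of the 6 members called, 1 higher and 3 lower, where 44.7% of all tested genes were called, 20.4% higher and 24.4% lower. Fcgr1 was higher in WGFT17 (log2 change 0.36, SE 0.06, adjusted p = 0.000429 by edgeR), all 3 libraries above the JHU083 range of 27.2 to 30.1 FPKM. Of all tested genes, 53.4% had groups that did not overlap. Fcgr2b was lower by 0.45 (log2 change -0.45, SE 0.07, adjusted p = 0.000244) and Fcgrt by more (log2 change -0.80, SE 0.07, adjusted p = 3.72e-06). JHU083 values of Fcgrt were 62.4, 62.4 and 51.5 FPKM, and even the lowest, replicate 3, was above all WGFT17 libraries. Fcgr1, Fcgr2b and Fcgrt were called with and without JHU083 replicate 3. Fcgr3 was called lower (log2 change -0.17, adjusted p = 0.0309), a call lost under 7 of 19 alternatives, among them 4 that leave out a single library (JHU083 replicate 1 or 2, WGFT17 replicate 2 or 3), with values of -0.19 to -0.12.

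Neither Fcgr4 nor Fcer1g was called between the drugs. Fcgr4 had a log2 change of 0.01 (95% interval -0.23 to 0.24, adjusted p = 0.966 by edgeR). Fcer1g had 0.04 (95% interval -0.20 to 0.27, adjusted p = 0.798 by edgeR), but this value depends on JHU083 replicate 3. It was 0.20 without that library (adjusted p = 0.0136 by edgeR) and -0.24 with it as the only JHU083 library (adjusted p = 0.0156 by edgeR).

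**Figure D2:**
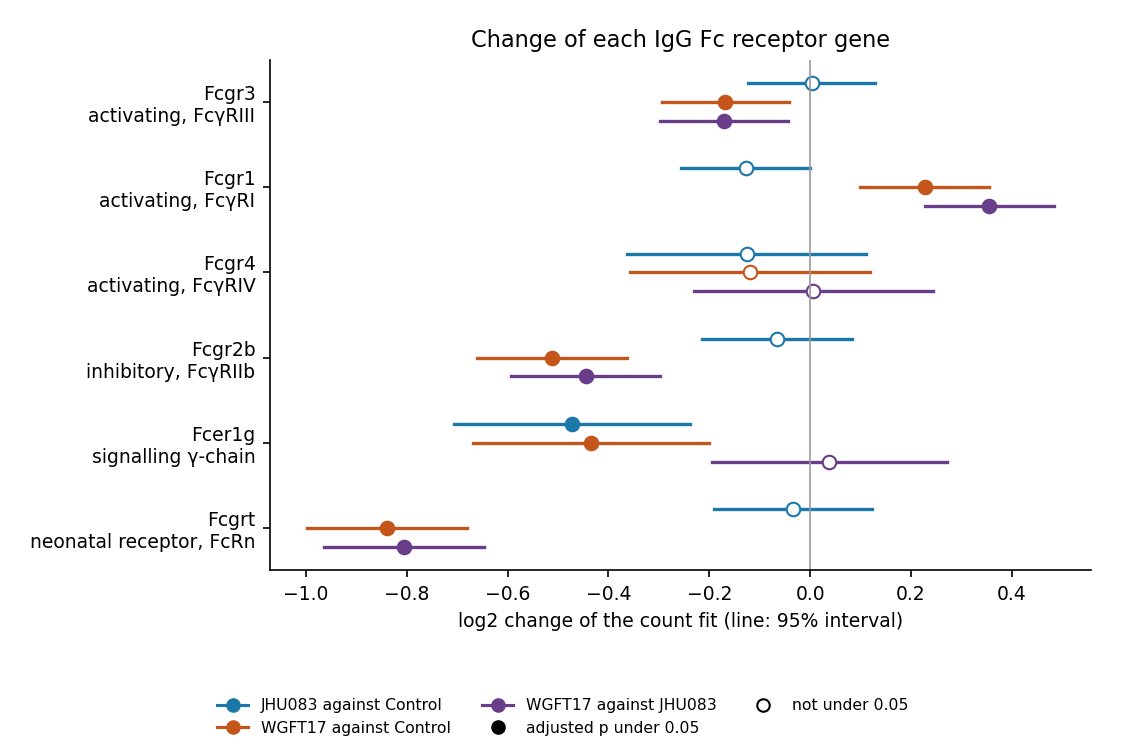
Log2 change of each gene in the count fit (horizontal axis) with its 95% interval, for JHU083 against Control (blue), WGFT17 against Control (orange) and WGFT17 against JHU083 (purple). Filled points have an adjusted p under 0.05. Fcgr1 lies to the right and Fcgr2b and Fcgrt to the left of 0 in both comparisons with WGFT17, and Fcer1g lies to the left in both comparisons with Control.

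The balance of activating against inhibitory receptors was read as a ratio of FPKM within each library. This removes scaling between libraries but not a trend on transcript length. The summed level of Fcgr1, Fcgr3 and Fcgr4 was 7.03, 6.67 and 6.94 times that of Fcgr2b in Control and 7.01, 7.26 and 7.07 times in JHU083. In WGFT17 it was 8.96, 8.61 and 9.44 times. The WGFT17 values all lay above the other 6, whereas Control and JHU083 overlapped. How often ratios of other genes separate the groups was not computed. Means were 6.88 ± 0.189 in Control, 7.11 ± 0.129 in JHU083 and 9.00 ± 0.415 in WGFT17 (SD, n = 3). The ratio was thus 1.31-fold higher in WGFT17 than in Control (log2 difference 0.39) and 1.27-fold higher than in JHU083 (0.34), against 1.03-fold for JHU083 over Control (0.05). No test was run on the sum, because the genes in it were chosen with earlier results known.

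The sum follows FcγRIII, which made up 83.9% ± 0.214 of it in Control, 85.1% ± 0.703 in JHU083 and 81.5% ± 1.45 in WGFT17. Single receptors were therefore also set against Fcgr2b, in 9 exact permutation tests over libraries (two-sided), which with 3 libraries against 3 cannot go below p = 0.1. The ratio of Fcgr1 to Fcgr2b was 0.565 ± 0.0242 in Control, 0.541 ± 0.0311 in JHU083 and 0.948 ± 0.108 in WGFT17. In WGFT17 replicate 3 Fcgr1 exceeded Fcgr2b (ratio 1.07), which no other library showed. The ratio of Fcgr3 to Fcgr2b was 5.77 ± 0.145, 6.05 ± 0.0808 and 7.34 ± 0.354 in the same order. That of Fcgr4 to Fcgr2b was 0.545 ± 0.0430, 0.523 ± 0.0540 and 0.717 ± 0.0577.

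Each of the 3 ratios was higher in WGFT17 than in either other group, with no overlap between libraries. Such separation was common: single tested genes did not overlap in FPKM for 73.2% against Control and 53.4% against JHU083. Log2 differences of the ratios from Control were 0.74 for Fcgr1, 0.35 for Fcgr3 and 0.39 for Fcgr4, and those from JHU083 were 0.81, 0.28 and 0.46. All 6 had the smallest p the exact test allows (p = 0.1, adjusted over the 9 tests 0.129). The 3 ratios share Fcgr2b, whose own level was lowest in the WGFT17 libraries, so these are not separate results. Their genes were also chosen with earlier results known, so the p-values add no support. Each ratio combines numerator and denominator: the log2 changes of Fcgr3 and Fcgr4 themselves from Control were -0.17 and -0.12 in the count fit, beside -0.51 for Fcgr2b. JHU083 against Control gave -0.06 for Fcgr1 (exact p = 0.4), 0.07 for Fcgr3 (exact p = 0.1, no overlap) and -0.06 for Fcgr4 (exact p = 0.7). No ratio was recomputed with the trend on transcript length removed. In the count fit with that trend removed, JHU083 against Control gave log2 changes of -0.11 for Fcgr1, 0.13 for Fcgr3 and 0.02 for Fcgr4. Fcgr2b had -0.10 there.

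**Figure D3:**
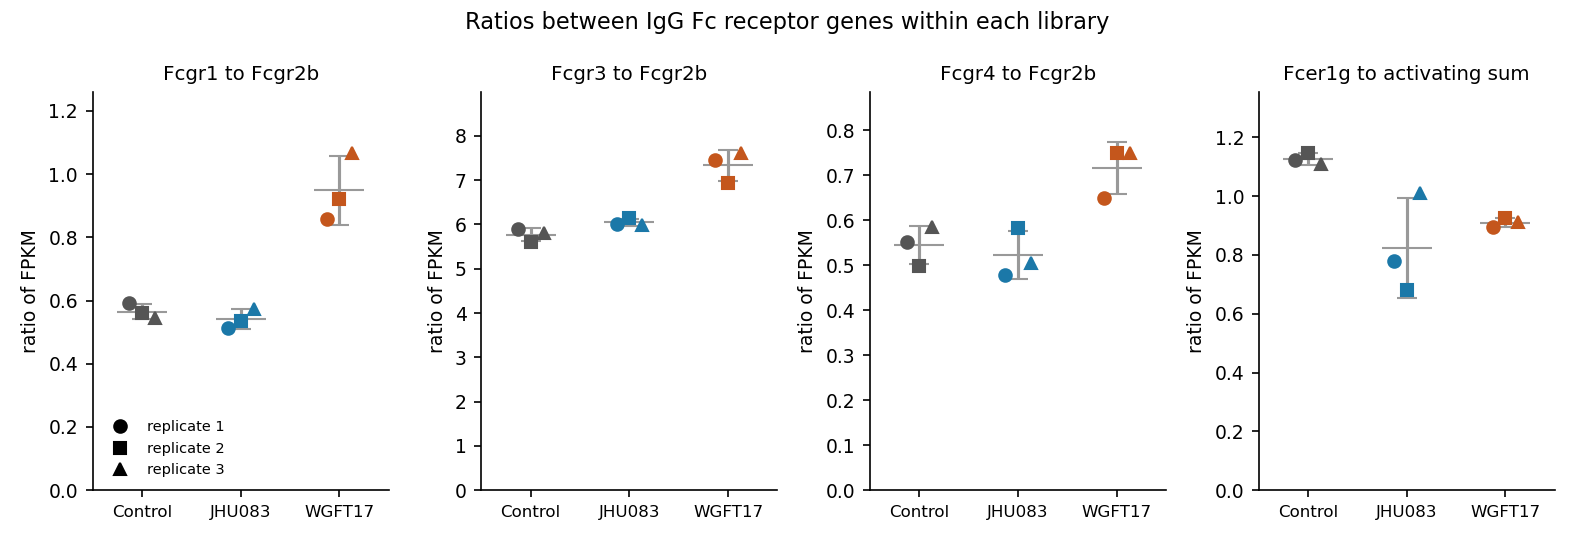
Ratios of FPKM within each library (vertical axes, from 0) of Fcgr1, Fcgr3 and Fcgr4 to Fcgr2b, and of Fcer1g to the summed activating receptors. Symbols mark replicates, and the grey cross is the mean with 1 SD. The WGFT17 libraries lie above the other 6 in the first 3 panels, and in the fourth all drug libraries lie below Control.

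On the FPKM scale, with no trend on transcript length removed, the γ-chain gene relative to the activating receptors was lower in both drug groups. Fcer1g stood at 1.12, 1.15 and 1.11 times the summed activating receptors in Control, at 0.780, 0.681 and 1.01 times in JHU083, and at 0.895, 0.924 and 0.911 times in WGFT17. All drug libraries were below all Control libraries, and the JHU083 libraries were the most spread. Single tested genes did not overlap in FPKM with Control for 43.7% in JHU083 and 73.2% in WGFT17. The mean was 1.39-fold lower in JHU083 than in Control and 1.24-fold lower in WGFT17, and the drug groups overlapped.

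Fcer1g is the shortest of the 6, with a longest annotated transcript of 683 bases against 1256 to 3544 for the others. Short transcripts had lower medians in both drug groups: for 1226 tested genes under 1000 bases the median log2 change was -0.28 for JHU083 and -0.33 for WGFT17 against Control, and 0.02 and 0.03 for 10565 longer genes. Of the short genes 25.9% were called lower in JHU083 and 41.3% in WGFT17, against 10.99% and 28.7% of longer ones. In the fit with that trend removed, in which neither change of Fcer1g was called, Fcgr1 (0.22), Fcgr2b (-0.55) and Fcgrt (-0.78) remained called in WGFT17 against Control. Log2 changes from Control in that fit were -0.19 for Fcer1g and 0.13 for Fcgr3 in JHU083. In WGFT17 they were -0.08 for Fcer1g and -0.04 for Fcgr3. The ratio of Fcer1g to the summed activating receptors was not recomputed with the trend removed.

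The genes whose pattern over the 9 libraries was most like each member's were sought among 6445 genes with a mean of at least 5 FPKM, by Pearson's r of log2(FPKM + 1). The 9 values share libraries and groups, so r is a description. For Fcer1g they were Rpl24 (r = 0.98), Rpl10-ps5 (0.98) and Rps19 (0.98), a ribosomal protein gene, a ribosomal pseudogene and another ribosomal protein gene. Rpl24 had 181, 190.5 and 194 FPKM in Control, 143, 132 and 174 in JHU083, with 151, 152 and 149.7 in WGFT17, the same shape as Fcer1g with JHU083 replicate 3 nearest to Control.

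Fcgr2b was most like Mgst3 (a microsomal glutathione transferase), Hfe (a regulator of iron uptake) and Csf1r (the receptor for M-CSF), each with r = 0.98. Csf1r had 268, 277 and 275 FPKM in Control, 285, 299 and 275 in JHU083, with 234, 239 and 217 in WGFT17, so its WGFT17 libraries were the lowest. Fcgr1 was most like Ypel5 (0.99), Iars (0.99, isoleucyl-tRNA synthetase) and Atp6v1g1 (0.97, a subunit of the proton pump of lysosomes). Fcgrt was most like Mxd4 (1.00), Rpa1 (0.99) and Pcdhgc3 (0.99). Likeness was weaker for Fcgr3, led by Hp1bp3, Mrpl18 and Men1 (0.91 each), and for Fcgr4, led by Stac2 (0.92) and R3hdm4 (0.87).

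Among the members themselves, r was 0.94 for Fcgr2b with Fcgrt, -0.90 for Fcgr1 with Fcgr2b and -0.96 for Fcgr1 with Fcgrt. Between Fcer1g and the other 5 it lay between -0.20 and 0.26, and between Fcgr4 and the other 5 between -0.01 and 0.25. The γ-chain gene thus did not follow its receptor genes over these libraries.

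**Figure D4:**
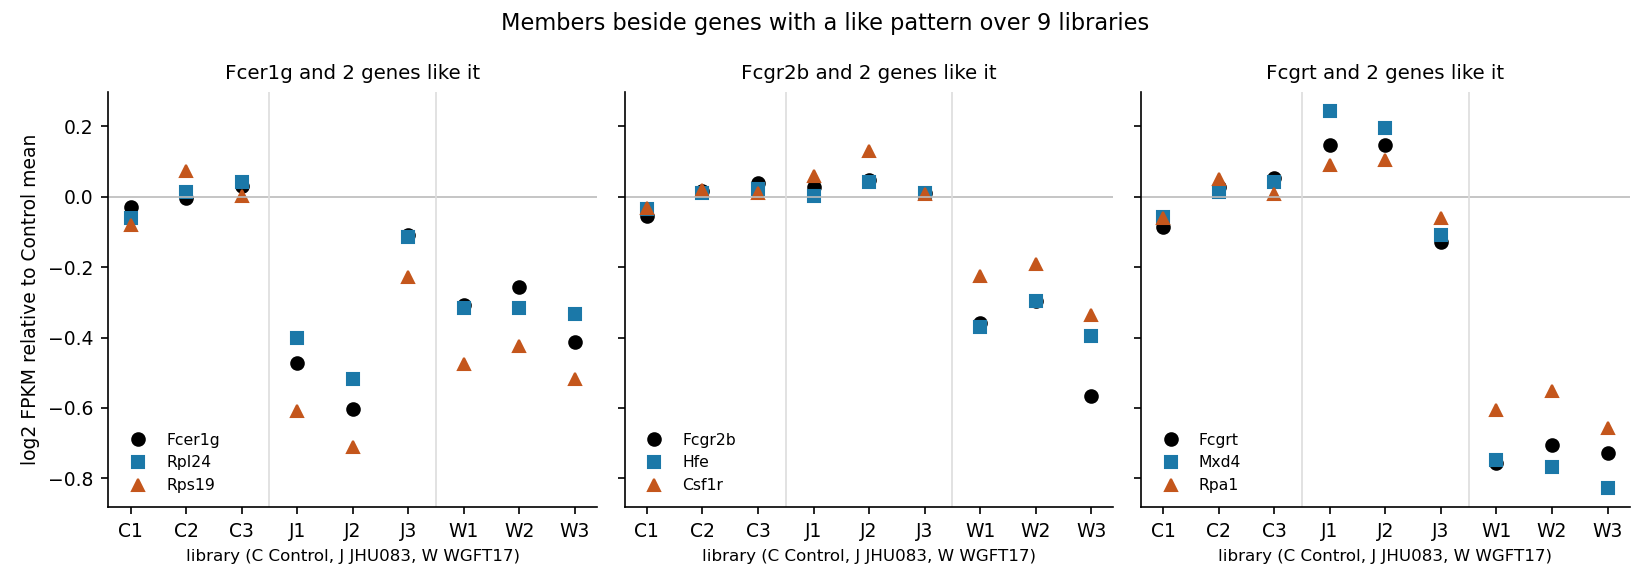
Log2 FPKM relative to the Control mean (vertical axis) in each of the 9 libraries (C1 to C3 Control, J1 to J3 JHU083, W1 to W3 WGFT17) for Fcer1g, Fcgr2b and Fcgrt, each with 2 of the 3 genes most like it. Fcer1g, Rpl24 and Rps19 are low in J1 and J2 and nearer to Control in J3, Fcgr2b is low in W1 to W3, and Fcgrt is lowest in W1 to W3 and slightly under Control in J3.

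Promoter sequence was examined because Fcgr1 was the only member called higher in WGFT17. The window is the 250 bases before the RefSeq start (chr3:96293970-96294219, GRCm38.p6, minus strand), with matches in capitals to TTCNNNGAA, the pattern of the interferon-γ-activated site, and to GAGGAA read on the other strand as TTCCTC, the core bound by the myeloid factor PU.1.
Fcgr1 promoter: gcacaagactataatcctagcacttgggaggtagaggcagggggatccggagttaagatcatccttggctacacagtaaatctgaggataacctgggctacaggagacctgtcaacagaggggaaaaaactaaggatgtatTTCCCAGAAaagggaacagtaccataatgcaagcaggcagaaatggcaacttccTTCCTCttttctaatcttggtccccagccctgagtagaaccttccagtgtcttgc
The first match lies at bases -109 to -101 from the start and the second at -55 to -50. Of 32851 RefSeq promoter windows, searched over the same 250 bases before the start, 7.02% held TTCNNNGAA and 23.3% held GAGGAA on either strand. A pattern like the interferon-stimulated response element was in 2.98% and TTGCNNAA, a C/EBP pattern, in 9.56%. Fcgr4 held the PU.1 core and the interferon response-like pattern, both windows of Fcgr3 held the PU.1 core and the C/EBP pattern, and Fcgrt held the C/EBP pattern. None of these letters was found in the windows of Fcgr2b and Fcer1g. A match describes letters in a window and not the binding of a factor.

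Known inducers and regulators of Fc receptor genes were followed as a list of 26, of which 25 were tested. In JHU083 against Control 8 were called higher and none lower (32% called, beside 24% of all tested genes), with a median log2 change of 0.16 beside 0.00 over all tested genes. The leading genes by adjusted p were Irf1, Jak2 and C3ar1, which encode an interferon-induced transcription factor, a cytokine receptor kinase and the receptor for complement fragment C3a. Their log2 changes were 0.33, 0.30 and 0.25 (adjusted p = 0.00967, 0.0108 and 0.0141 by edgeR). In WGFT17 against Control 11 were called higher and 6 lower (68% called, beside 58% of all tested genes, median 0.03).

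Csf2rb, the signalling chain of the GM-CSF receptor, had 26.7, 24.4 and 28.6 FPKM in Control and 44.4, 48.6 and 42.8 in WGFT17, with no overlap (log2 change 0.66, adjusted p = 2.72e-05 by edgeR). C3ar1 rose by 0.51 (adjusted p = 3.07e-05 by edgeR). Between the drugs, 11 were higher in WGFT17 and 10 lower (84% called, beside 44.7%). Among the latter were Ifngr1, the ligand-binding chain of the interferon-γ receptor (log2 change -0.55, adjusted p = 9.31e-06 by edgeR), and Il10ra, the interleukin-10 receptor (log2 change -0.72, adjusted p = 1.07e-05 by edgeR).

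Downstream of the activating receptors, 26 proximal kinases and adaptors were all tested. In JHU083 5 were called higher and 1 lower than Control (median log2 change 0.13), and the 23.1% called are near the 24% of all tested genes. The leading genes were Vav3, an exchange factor for Rac (log2 change 0.41, adjusted p = 0.00286 by edgeR), Pik3r1, the regulatory subunit of phosphoinositide 3-kinase (0.29), and the adaptor Sh3bp2 (0.23). In WGFT17 11 were higher and 7 lower (69.2% called, beside 58% of all tested genes, median 0.13), led by Pik3cb (0.60), the adaptor Pik3ap1 (0.38) and Vav3 (0.44). Between the drugs 4 were higher and 8 lower in WGFT17 (46.2% called, beside 44.7%). Lyn, a Src family kinase that phosphorylates both kinds of motif, had 42.3, 41.4 and 40.8 FPKM in Control, 44.7, 47.8 and 46.5 in JHU083, with 39.9, 39.3 and 38.1 in WGFT17. Its log2 change was -0.26 between the drugs (adjusted p = 0.000771 by edgeR) and 0.06 for JHU083 against Control (adjusted p = 0.337 by edgeR).

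The phosphatases and adaptors that FcγRIIb and like receptors use were a list of 16, all tested. In JHU083 4 were called higher and none lower, and in WGFT17 4 were higher and 4 lower, with medians of 0.09 and -0.04. The shares called, 25% and 50%, are near or under the 24% and 58% of all tested genes. SHIP itself, Inpp5d, had 43.2, 42.5 and 41.7 FPKM in Control and 42.4, 44.0 and 41.3 in WGFT17 (log2 change -0.11, adjusted p = 0.162 by edgeR). The receptor phosphatase CD45, Ptprc, rose in both drug groups, by 0.36 in JHU083 (adjusted p = 0.00357 by edgeR) and by 0.56 in WGFT17 (adjusted p = 2.05e-05 by edgeR). Ptpn22, a phosphatase that acts on Src family kinases, fell in WGFT17 (log2 change -0.86, adjusted p = 3.52e-05 by edgeR). Ptpn6, which encodes SHP-1, was lower in WGFT17 than in JHU083 (-0.30, adjusted p = 0.00213 by edgeR), where 2 of the 16 were higher and 5 lower (43.8% called, beside 44.7%).

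Of 28 genes of actin and the phagocytic cup 27 were tested, with 4 higher and 4 lower in JHU083, and 9 higher and 8 lower in WGFT17 (29.6% and 63.0% called, beside 24% and 58% of all tested genes). The leading genes in WGFT17 were all lower: Coro1a (log2 change -0.98, adjusted p = 3.53e-07 by edgeR), Gsn, which severs actin filaments (-0.82), and Arpc3, a subunit of the Arp2/3 complex (-0.46). Coro1a and Gsn were also the leading genes in JHU083, at -0.30 and -0.34. Between the drugs 2 were higher and 7 lower in WGFT17 (33.3% called, beside 44.7%).

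The phagocyte oxidase makes superoxide in the phagosome, and its 6 genes were all tested. In WGFT17 3 were called higher and none lower, a share of 50% that lies under the 58% of all tested genes. Ncf4, which encodes p40phox, had 23.8, 25.4 and 26.4 FPKM in Control and 47.0, 49.4 and 50.3 in WGFT17 (log2 change 0.85, SE 0.06, adjusted p = 3.08e-07 by edgeR). Ncf1 (0.21) and Cyba (0.26) rose by less, and the catalytic subunit Cybb had -0.06 (adjusted p = 0.45 by edgeR). In JHU083 Cybb was higher (0.25, adjusted p = 0.0244 by edgeR) and Cyba lower (-0.25, adjusted p = 0.0364 by edgeR). The 2 called in JHU083 are 33.3% of the list, beside 24%, and between the drugs 3 were higher and 1 lower in WGFT17 (66.7% called, beside 44.7%).

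The γ-chain also serves receptors other than those for IgG, and 8 of 15 listed genes of that kind were tested. In WGFT17 5 were called higher and 2 lower than Control (87.5% called beside 58% of all genes, median log2 change 0.40 beside 0.00), while Fcer1g itself fell. Clec4e, which encodes the fungal and mycobacterial glycolipid receptor Mincle, had 2.12, 1.92 and 1.78 FPKM in Control and 7.13, 6.10 and 6.61 in WGFT17 (log2 change 1.66, SE 0.15, adjusted p = 3.38e-06 by edgeR). Clec4d, a related lectin receptor, had 151, 145 and 178 FPKM in Control and 259, 277 and 238 in WGFT17 (0.60, adjusted p = 0.00016 by edgeR). In JHU083 2 were higher, Cd300lb (0.44) and Cd300ld (0.48), a share of 25% beside 24%. Between the drugs 4 were higher and 1 lower in WGFT17 (62.5% called, beside 44.7%). Clec4n, which encodes Dectin-2, was among the higher (0.63, adjusted p = 4.43e-05 by edgeR).

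Tyrobp encodes DAP12, another small ITAM-bearing adaptor. It had 498, 518 and 569.7 FPKM in Control, 469.9, 456 and 545 in JHU083, with 452, 499.9 and 461 in WGFT17, so its ranges overlapped with Control in both drug groups. It was called lower in WGFT17 (log2 change -0.28, adjusted p = 0.0123 by edgeR) and not in JHU083 (-0.20, adjusted p = 0.0909 by edgeR). Of the 9 tested genes of Tyrobp and its receptors, 1 was higher in JHU083, 2 were higher and 1 lower in WGFT17, and 2 were higher in WGFT17 than in JHU083. These shares, 11.1%, 33.3% and 22.2%, lie under the 24%, 58% and 44.7% of all tested genes. The gene called higher in JHU083 was Cd300lb, which is also on the list of γ-chain partners and is counted in both. Plxna1, a plexin that pairs with DAP12, led in WGFT17 (0.85, adjusted p = 8.99e-06 by edgeR).

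Other receptors with an inhibitory tyrosine motif were set beside Fcgr2b. Of 18 listed 16 were tested, and in WGFT17 5 were called higher and 9 lower (87.5% called beside 58% of all tested genes, median log2 change -0.31 beside 0.00). Siglecf (-2.41) and Pecam1 (-1.38) were among the lower, both at 2.3 FPKM or less in Control, while Cd300a had 28.1, 30.4 and 33.3 FPKM in Control and 59.3, 61.6 and 63.0 in WGFT17 (0.89, adjusted p = 3.16e-06 by edgeR). Pirb, which encodes the paired inhibitory receptor PIR-B, had -0.09 (adjusted p = 0.129 by edgeR). In JHU083 4 were higher and 1 lower (31.2% called, beside 24%), with Lilrb4a at 0.57 (adjusted p = 0.00291 by edgeR). Between the drugs 3 were higher and 7 lower in WGFT17 (62.5% called, beside 44.7%). Fcgr2b was thus 1 of several inhibitory receptor genes that were lower in WGFT17, and others were higher.

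**Figure D5:**
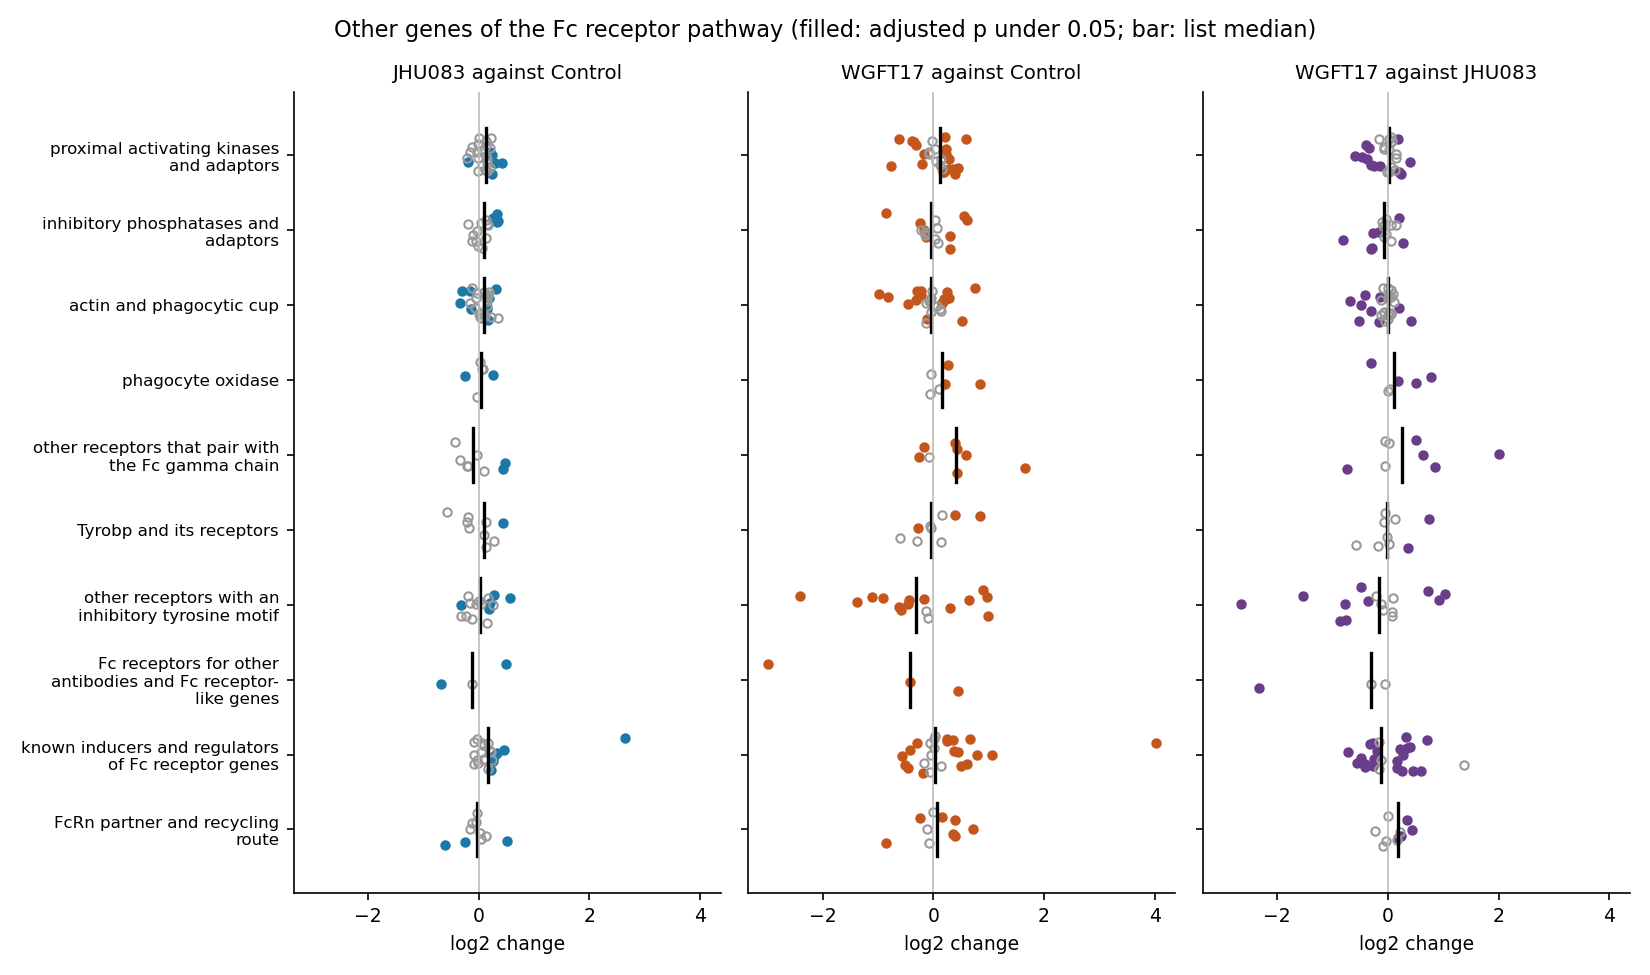
Log2 change (horizontal axes) of each tested gene of 10 lists around the Fc receptor pathway in the 3 comparisons. Filled points have an adjusted p under 0.05, open points do not, and black bars are list medians. In WGFT17 against Control the list of γ-chain partners has a median of 0.40 and that of inhibitory receptors -0.31.

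Fc receptors for other antibodies and Fc receptor-like genes were mostly under the minimum FPKM, and 3 of 13 listed were tested. Fcrls, an Fc receptor-like gene of unsettled ligand, had 205, 234.5 and 199 FPKM in Control, 149, 139.8 and 138 in JHU083, with 32.4, 28.2 and 25.6 in WGFT17. The 3 groups did not overlap, and the log2 change from Control was -0.68 in JHU083 (SE 0.09, adjusted p = 0.000876 by edgeR) and -2.998 in WGFT17 (SE 0.09, adjusted p = 6.12e-10 by edgeR). Trim21, the cytosolic Fc receptor that sends antibody-coated virus to the proteasome, had 2.81, 3.22 and 2.91 FPKM in Control, 4.38, 4.70 and 4.40 in JHU083, with 4.37, 4.51 and 4.21 in WGFT17. It rose in both drug groups (0.50 and 0.44, adjusted p = 0.00299 and 0.0011 by edgeR). Fcrl1 was called lower in WGFT17 (-0.43, adjusted p = 0.0383 by edgeR) at about 2 FPKM.

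FcRn needs β2-microglobulin and an endosomal recycling route, listed as 11 genes of which 10 were tested. While Fcgrt fell in WGFT17, 5 of these were called higher and 2 lower than Control (70% called, beside 58% of all tested genes, median log2 change 0.07). B2m had 1072, 1094 and 1110.2 FPKM in Control, 1059, 1022 and 1314 in JHU083, with 1556, 1571 and 1532 in WGFT17. It was 0.44 higher in WGFT17 than in JHU083 (adjusted p = 0.00134 by edgeR). Eea1, an early endosome tether, rose in both drug groups (0.51 in JHU083 and 0.73 in WGFT17), and Rab4a, a GTPase of fast recycling, fell in both (-0.61 and -0.85). In JHU083 1 of the 10 was higher and 2 lower (30% called, beside 24%), and between the drugs 4 were higher in WGFT17 and none lower (40% called, beside 44.7%).

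Neighbouring genes were examined because 4 members share a locus. Of 18 tested genes that start within 150 kb of the chromosome 1 members, 1 was called higher and 4 lower in JHU083 (Sdhc, Pfdn2 and Ufc1 among the lower), and 3 were higher and 5 lower in WGFT17 (Atf6 and Dedd among the higher, and Pcp4l1, Sdhc, Adamts4 and Ufc1 among the lower). The called shares of these neighbours, 27.8% and 44.4%, stand beside 24% and 58% of all tested genes. Between the drugs Atf6 and Pfdn2 were higher in WGFT17, and Pcp4l1, Adamts4 and Nectin4 lower (27.8% called, beside 44.7%). The median change of the 18 was 0.00 in each of the 3 comparisons, as over all tested genes. Near Fcgr1, none of 10 was called in JHU083, and in WGFT17 Gm20632 was higher and Mtmr11 and H2bc21 lower. Their called shares were 0% and 30%, beside 24% and 58% of all tested genes. Between the drugs 2 of the 10 were higher and 2 lower in WGFT17 (40% called, beside 44.7%).

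Near Fcgrt, of 18 tested genes 6 were lower and none higher in JHU083, and 7 were lower and 1 higher in WGFT17. The called shares were 33.3% in JHU083, beside 24%, and 44.4% in WGFT17, beside 58%. Those in JHU083 included Rcn3, Tead2, Rras, Rpl13a and Prmt1. In WGFT17 Bcl2l12, Cpt1c, Rcn3, Tead2, Rras and Prmt1 were lower and Cd37, a leukocyte tetraspanin, was higher (log2 change 0.87, adjusted p = 4.01e-07 by edgeR). Rcn3, a calcium-binding protein of the endoplasmic reticulum, had the largest change there (-2.80, adjusted p = 6.12e-10 by edgeR).

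Several cell types other than macrophages carry these receptors, and their markers moved between the groups. B cells express FcγRIIb: of 8 B cell markers 3 (Cd79b, Cd22 and Ighm) were at 1 FPKM or more in each group, and the B cell list had sums of 29.4 to 31.2 FPKM in Control, 19.8 to 23.8 in JHU083 and 9.57 to 9.88 in WGFT17. Mean levels in Control, JHU083 and WGFT17 were 21.3, 12.97 and 3.58 FPKM for Ighm and 3.86, 3.02 and 1.52 for Cd79b. Both were lowest in WGFT17, as was Fcgr2b. Cd22 had 4.93, 5.16 and 4.60 FPKM, with libraries of the groups overlapping. Ms4a1 and Pax5 did not exceed 0.03 FPKM in any library. Neutrophils express FcγRIII and FcγRIV, and their 10 markers summed to 48.3 to 57.9 FPKM in Control, 20.6 to 24.5 in JHU083 and 7.04 to 10.8 in WGFT17. In the same order mean levels were 17.2, 3.31 and 0.39 FPKM for S100a9, 13.9, 3.57 and 0.187 for Ngp, and 7.78, 1.97 and 1.01 for S100a8. Mmp8 moved less, with 10.2, 11.4 and 7.69 FPKM, and it made up most of the WGFT17 sum. Ly6g was at 0 in all Control and WGFT17 libraries. Markers at 1 FPKM or more numbered 6, 4 and 2 of the 10.

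Mast cells and basophils use the γ-chain, and 6 of their 9 markers in the table summed to 9.09 to 11.2, 3.84 to 4.80 and 0.81 to 0.98 FPKM in the same order. Mcpt8 alone, with means of 9.42, 3.65 and 0.37 FPKM, was most of the Control and JHU083 sums. Cpa3, Ms4a2 and Fcer1a did not exceed 0.1 FPKM in any library. NK cells carry FcγRIII, and their 7 markers summed to 0.15 to 0.41 FPKM in Control, 0.19 to 0.66 in JHU083 and 0.44 to 0.97 in WGFT17. The 11 dendritic cell markers summed to 138 to 202 FPKM in Control, 134 to 153 in JHU083 and 53.1 to 63.2 in WGFT17, mostly from Cd74, Itgax and class II genes, with Flt3 at 0.04 or less. The 8 monocyte markers summed to 33.3 to 38.3, 29.3 to 31.3 and 13.3 to 13.9 FPKM. Sums of stromal markers (8 genes, which include collagens) were 1325 to 1419, 858 to 1029 and 225 to 235 FPKM, those of 11 hepatocyte markers 783 to 813, 401 to 534 and 264 to 421, and those of 9 endothelial and liver sinusoid markers 8.23 to 10.3, 10.2 to 11.9 and 6.41 to 8.18. Other than the NK cell sum, the sums from B cell to endothelial markers were lower in WGFT17 than in Control, as were Fcgr2b, Fcer1g and Fcgrt, and their part in those changes was not tested.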

How the data were processed

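RNA-seq libraries (poly(A), stranded by dUTP, read pairs of 150 bases, per the labels' protocols) were made from 9 samples in 3 groups. Tools named in the submitters' processing notes, without roles, are HISAT2 2.2.1, StringTie 2.1.6, cutadapt 1.9, edgeR and DESeq2, and the build named is mm9. Gene positions in the table equal GRCm38 (GENCODE M21) for 26088 of 28926 matched identifiers (90.2%), all 6 members among them, so GRCm38 is used. The authors deposited FPKM values, scaled to transcript length and depth, and expected counts (estimated counts), which are whole numbers and were used unrounded. Strand settings of the counting are not given in the sources used here. Columns were matched to samples by their labels, and 0 columns were left unmatched.

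The test, for genes averaging 1 FPKM or more, was that of edgeR 4.0.16 (quasi-likelihood, TMM, all 9 libraries, no block) under R 4.3.3, with library sizes summed over the tested genes. The common dispersion of 0.01486 gives a biological coefficient of variation of 0.122. DESeq2 1.42.0 and limma 3.58.1 (log2 FPKM with a pseudocount of 1 or 0.1) were alternatives, as were other filters, scalings, subsets of libraries, counts divided by 4 and a replicate block. Removal of a robust loess trend (span 0.3) of each library on transcript length was added after seeing the data. The code was tested on simulated data with 200 changed genes. Ratios use FPKM without a pseudocount.

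The members and all lists were chosen with earlier results of these data known. The text names all 6 members, up to 3 called genes with the smallest adjusted p and 1 uncalled gene with the highest mean FPKM per list and comparison (of which a part is printed), the 3 genes most like each member, leaving out provisional symbols, and called genes within 150 kb. Results of some of these genes are withheld and not reported here, though counts include them. Motifs were searched in the first-numbered coding transcript of each gene.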

Additional observations from a re-analysis of the deposited data

How the results depend on the processing

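Fcgr1, Fcgr2b and Fcgrt kept their direction and call in WGFT17 under all 18 alternatives against Control and all 19 against JHU083. Members called in JHU083 against Control were 2 without JHU083 replicate 3 and 0 with the length trend removed; leaving out single libraries gave 1 to 2, 4 to 5 and 3 to 5 in the 3 comparisons. The length trend left 3 called in WGFT17 against Control. With the mean of the 3 log2 values in place of their sum, the ratio of activating to inhibitory receptors was -0.020 (turned), 0.49 and 0.51. Leaving out single libraries, it was 0.025 to 0.06, 0.35 to 0.42 and 0.30 to 0.37.

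Directions that turned belong to values not called with all libraries. In JHU083 against Control, Fcgr2b was 0.029 on both FPKM scales. Fcgr3 was -0.00094 without a minimum FPKM, -0.0076 with median-ratio factors and with DESeq2, -0.011 with upper-quartile factors, -0.025 with JHU083 replicate 3 alone, and -0.019 to 0.034 leaving out single libraries. Fcgr4 was 0.019 with the length trend removed. Fcgrt was 0.056 on both FPKM scales, 0.038 with the length trend removed and -0.081 to 0.046 leaving out single libraries. In WGFT17 against Control, Fcgr4 was 0.028 with the length trend removed. Between the drugs, Fcgr4 was -0.020 at a minimum of 5 FPKM, -0.0099 with library totals alone and -0.092 to 0.10 leaving out single libraries. Fcer1g was -0.060 to 0.20 leaving out single libraries and -0.24 with JHU083 replicate 3 alone. The cause of these turns was not tested.

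With the replicate number as a block, the call of Fcgr3 between the drugs was lost (-0.17, adjusted p = 0.0603 by edgeR), which left 3 members called there; 2330, 6530 and 4907 of all genes were called, and no other call of a member changed. Deviations of same-numbered libraries correlated between -0.12 and 0.05, so no strong shared deviation was seen. Whether the numbers pair samples is not given in the labels, and these correlations cannot settle it. Calls over all genes in JHU083 against Control were 2831, but 1534 without Control replicate 2 and 1568 without Control replicate 3. Fcgr4, with the fewest counts of the 6, had the widest intervals.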
